A study of Mus musculus with 20 samples.

Results

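The RNA of cardiac fibroblasts sorted from mouse hearts 2 weeks after myocardial infarction was set against that of cardiac fibroblasts sorted 7 days after infarction. The comparison took the RNA-seq libraries that the labels place at these times, 2 at week 2 and 2 at day 7, which are 4 of the 20 libraries of the series, and it covered every gene of the deposited count table. The series holds 10 RNA-seq libraries and as many ATAC-seq libraries (sequencing of DNA cut by the Tn5 transposase where chromatin is open), 2 of each kind at every one of 5 points: uninjured hearts, day 3, day 7, week 2 and week 4 after infarction. The study is titled as a survey of open chromatin in quiescent fibroblasts and in fibroblasts activated by infarction.

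Week 2 and day 7 animals shared everything the labels describe apart from the time after infarction. Their fibroblasts were marked by lineage: a MerCreMer recombinase was switched on with intraperitoneal tamoxifen at 75 mg per kg body weight a day for 5 days, and cells of the Tcf21 lineage then carried eGFP. Uninjured animals received the same labelling. Hearts were digested with collagenase D and dispase II, eGFP+ cells were sorted with a gate set on an eGFP- control, and RNA came from 10000 sorted cells. The sources used here give neither strain, sex and age nor the region of the heart, and they do not say whether replicates came from separate animals. The p-values therefore reflect how far these libraries spread, part of which can be technical. The lineage mark records that a cell or its ancestor once expressed Tcf21, so it says nothing of how active the fibroblast is, and eGFP+ cells that are not fibroblasts would pass the same gate.

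Infarcted myocardium is replaced by a collagen scar that fibroblasts build. In the textbook account, resident fibroblasts divide in the first days after injury, turn into contractile, collagen-secreting myofibroblasts during the first week, and leave division as the scar matures, while macrophages that cleared the dead muscle withdraw. Scar strength depends on secreted fibrillar collagens and on the enzymes that hydroxylate and cross-link them, and mature scars hold fibroblasts that express cartilage and tendon matrix genes such as Comp and Chad, often called matrifibrocytes.

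The libraries held 18402542 and 17244844 expected counts at week 2 and 19442572 and 16986647 at day 7. All 15 fibroblast markers checked were detected at both times, Pdgfra, the PDGF receptor of fibroblasts, at 274 and 159.6 CPM at week 2, against 254 and 147 CPM at day 7, and Col1a2, a chain of type I collagen, at 4782 and 4509 CPM at week 2, against 7707 and 9487 CPM at day 7. Tcf21 RNA itself, the lineage gene, was at 10.5 and 36.2 CPM at week 2, against 12 and 9.53 CPM at day 7, and the groups overlapped. The libraries of a group were not alike in other ways. Mitochondrially encoded genes took 4.21% and 1.15% of counts at week 2 and 1.26% and 1.43% at day 7, and haemoglobin genes 0.140% and 0.382% at week 2 and 0.0830% and 0.113% at day 7. Y-linked genes took 0.0429% and 0.0426% of counts at week 2. At day 7 they took 3.6e-05% of counts in replicate 1 and 0.0252% in replicate 2. Without day 7 replicate 2, a difference in time cannot be told apart from one in Y-linked reads. Week 2 replicate 2 stood apart from all other libraries on the third principal component, at -84.17 against -18.06 to 45.52 for the other 9. In the library names of the labels it is also the single RNA-seq library with another initial letter, whose meaning the labels do not give. The results that rest on these libraries are given with and without them.

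Between week 2 and day 7, 97 of the 14968 genes tested differed (0.648% of genes, edgeR's quasi-likelihood test, adjusted p under 0.05 over all genes tested). The lower genes were the larger group in this fit, a balance that did not hold in every alternative. At week 2, 68 genes were lower (0.454% of genes), with absolute log2 fold changes from 1.06 to 11.79 and a median of 2.2. The 29 genes that were higher at week 2 (0.194%) had log2 fold changes from 1.07 to 8.5 with a median of 1.59. In all 97, both week 2 libraries lay on the same side of both day 7 libraries in CPM, the count of a gene relative to its library's total after scaling by trimmed mean of M-values. That separation alone was common: of all genes tested, 20% had both week 2 libraries above both day 7 libraries and 22.6% had both below. Counts below of list members that lay higher or lower are to be read beside these shares. The median log2 fold change of all genes was -0.0234, and 2416 genes had an unadjusted p under 0.05.

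**Figure D1:**
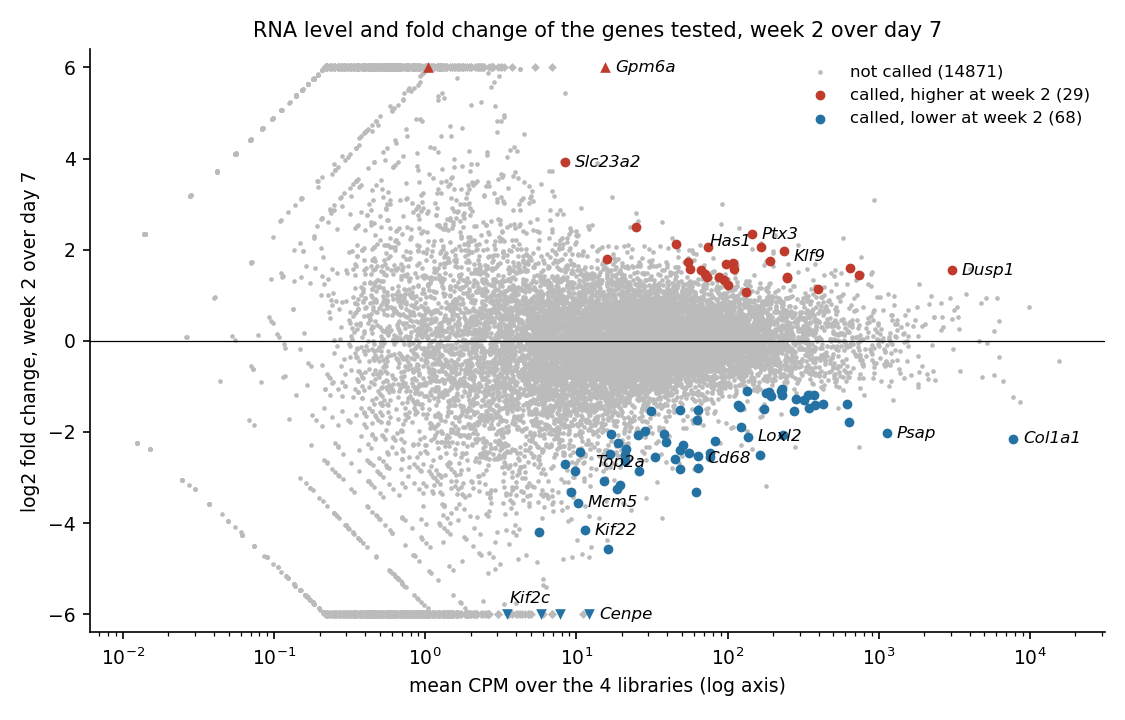
RNA level and log2 fold change of the genes tested. The x axis gives the mean CPM over the 4 libraries on a log scale, the y axis the log2 fold change of week 2 over day 7. Red points are the 29 genes called higher at week 2, blue points the 68 called lower, grey points the rest. Values beyond 6 in size are drawn at the edge as triangles (called genes) or diamonds (other genes). Called lower genes run from the rare Cenpe and Kif2c to the abundant Col1a1, and most called higher genes have log2 fold changes between 1 and 2.5.

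The number of calls rested on the test and on single libraries. DESeq2 called 1049 genes (487 higher and 562 lower), all 97 among them. With a term that marked libraries holding more than 10 CPM of Y-linked reads, edgeR called 20 genes (3 higher and 17 lower). With the 4 libraries of these groups alone it called 6 (4 higher and 2 lower). In that fit 2 of the 29 higher and 2 of the 68 lower genes kept their call. Without day 7 replicate 2, 4 genes were called, all lower at week 2, and the adjusted p of the 29 higher genes lay between 0.0573 and 0.35. Without week 2 replicate 2 there were 39 calls, without week 2 replicate 1 there were 298, and without day 7 replicate 1 there were 424. Cenpe, Trip13, Kif2c and Loxl2, all lower at week 2, were the 4 genes that were called whichever of these libraries was left out. All 29 higher and all 68 lower genes kept their sign in each of these fits. Because their week 2 and day 7 libraries did not overlap in CPM, a change of sign could hardly occur. The medians ran from 1.33 to 1.99 for the higher genes and from -2.46 to -2.06 for the lower genes. Here "fell" and "rose" stand for calls with all libraries in the fit, and apart from those 4 genes each such call was lost without day 7 replicate 2.

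Among called genes with a mean of at least 10 CPM at day 7, the 7 largest falls at week 2 were of cell-cycle genes. Below that level Jmjd4, named after its values were seen, had 0 counts in both week 2 libraries, against 94 and 154 counts at day 7 (at least 41.5-fold lower, adjusted p = 0.0474). Cenpe, a kinesin that carries chromosomes to the metaphase plate, had 0 counts in both week 2 libraries, against 375 and 504 counts (18.5 and 30.4 CPM) at day 7. Counting 3 reads per library as the floor, Cenpe was at least 146-fold lower at week 2 (edgeR adjusted p = 0.00129). Trip13, an ATPase of the spindle checkpoint, also had 0 counts in both week 2 libraries, against 13.1 and 10.1 CPM at day 7, and was at least 69.1-fold lower (adjusted p = 0.00355). Kif2c, a kinesin that takes apart microtubules at centromeres, had 1 count in each week 2 library, against 273 and 293 counts at day 7, 274-fold lower at week 2 with a 95% counting interval from 75.6 to 2270. A counting interval leaves out the spread between libraries. Cenpe, Trip13 and Kif2c were near or below the limit of detection at week 2 and well above it in both day 7 libraries. The absence of Cenpe and Trip13 was particular to week 2. Cenpe had 143 and 59 counts in uninjured hearts and 78 and 131 at week 4, and Trip13 19 and 26, then 47 and 43. Both were called higher at week 4 than at week 2 (edgeR adjusted p = 0.00713 and 0.0225). Jmjd4 had 54 and 154 counts in uninjured hearts and 59 and 24 at week 4, while Kif2c had 1 and 2 at week 4.

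The mitosis list showed the same direction through nearly all of its members. Of 35 mitosis genes, 4 fell, none rose, and 33 had both week 2 libraries below both day 7 libraries, the median being -2.53 on the log2 scale, beside -0.0234 for all genes. Top2a, the topoisomerase that untangles chromosomes before division, was at 10.5 and 8.72 CPM at week 2, against 53.9 and 58.4 CPM at day 7 (log2 fold change -2.54 ± 0.45 SE, adjusted p = 0.0355). Ube2c, the ubiquitin-conjugating enzyme of the anaphase-promoting complex, had 2.44 and 3.99 CPM at week 2, against 17.6 and 37.2 CPM at day 7 (-3.09 ± 0.58, adjusted p = 0.0416). Kif23, the kinesin of the cytokinetic midbody, had 2.33 and 2.14 CPM at week 2, against 10.8 and 18.4 CPM at day 7 (-2.70 ± 0.53, adjusted p = 0.0472). In each of these the week 2 libraries lay several fold below both day 7 libraries. Without day 7 replicate 2 their adjusted p was 0.221, 0.254 and 0.288. Mki67, the antigen behind the Ki-67 proliferation stain, stood at 3.94 and 2.36 CPM at week 2, against 24.7 and 50.2 CPM at day 7, and did not pass (-3.57 ± 1.37, adjusted p = 0.261). The same held for Cdk1, the kinase that drives entry into mitosis, at 1.89 and 4.56 CPM at week 2, against 40.2 and 44.7 CPM at day 7 (-3.72 ± 1.06, adjusted p = 0.144). Other mitotic genes chosen by fold change also fell: Ncaph, a condensin subunit, had 0.888 and 1.69 CPM at week 2, against 18.9 and 42.9 CPM at day 7, Kif22, a chromosome-arm kinesin, had 1.17 and 1.24 CPM at week 2, against 23.8 and 19.3 CPM at day 7, and Cenpm, a centromere protein, had 0.888 and 0.281 CPM at week 2, against 9.35 and 12.2 CPM at day 7.

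Genes of DNA replication were lower by a smaller margin. Of 37 S-phase genes, 3 fell and none rose, 27 lay lower in both week 2 libraries and 2 higher, and the median was -1.0. Mcm5, a subunit of the replicative helicase, had 0.777 and 2.42 CPM at week 2, against 19.9 and 17.8 CPM at day 7 (-3.56 ± 0.55, adjusted p = 0.0163). Pclaf, a protein that binds the replication clamp, had 1.39 and 5.63 CPM at week 2, against 37.6 and 29.2 CPM at day 7 (-3.25 ± 0.55, adjusted p = 0.03), and Gins2, part of the GINS complex that activates the helicase, had 5.72 and 7.37 CPM at week 2, against 24.8 and 29.5 CPM at day 7 (-2.05 ± 0.39, adjusted p = 0.042). Without day 7 replicate 2 the adjusted p was 0.074 for Mcm5, 0.151 for Pclaf and 0.226 for Gins2. Members of the same helicase did not pass: Mcm2 had 9.6 and 2.08 CPM at week 2, against 19.3 and 22.4 CPM at day 7, and Mcm3 had 19.4 and 9.45 CPM at week 2, against 38 and 42.6 CPM at day 7. The clamp itself, Pcna, was at 90.1 and 99.4 CPM at week 2, against 85 and 96.7 CPM at day 7, so the groups overlapped and its fold change was near 0 (0.06 ± 0.24). Hist1h2ap, a replication-dependent histone whose reads can be split with near-identical copies, had 3.94 and 3.77 CPM at week 2, against 35.7 and 33.8 CPM at day 7.

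Summed over the list, mitosis genes reached 162 and 167 CPM at week 2 and 724 and 916 CPM at day 7, and S-phase genes 469 and 506 CPM at week 2 and 846 and 891 CPM at day 7. The summed CPM of 25 macrophage markers moved the same way, with 629 and 735 CPM at week 2 and 2190 and 3810 CPM at day 7, and its part in the cell-cycle difference was not tested. In RNA from a sorted population, fewer cells of a type and less RNA per cell cannot be told apart, so these values do not separate fewer dividing cells from less of these transcripts in each. Across the alternatives tried, the number of mitosis genes called lower ran between 1 and 31, and of S-phase genes between 0 and 12.

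Promoters of cell-cycle genes are known for the CHR (cell cycle genes homology region, searched as TTTGAA and TTCGAA), the E2F site (TTTCCCGC, TTTCGCGC, TTTGCCGC and TTTGGCGC) and CCAAT boxes. The window ran from 250 bases before to 50 after the gene start in RefSeq (GRCm38.p6), read on both strands, and 11019 tested genes had such a window. The motifs were settled with their shares in these lists known, so the shares are descriptions. A CHR lay in 24 of 30 mitosis promoters (80.0%) and in 14.2% of all promoters, and an E2F site in 12 of 30 S-phase promoters (40.0%) and 3.94% of all. Among the called genes the shares were lower. Of 56 lower genes with a window, 25% held a CHR and 10.7% an E2F site. Of 23 higher genes with a window, 4 held a CHR (17.4%) and 1 an E2F site (4.35%). A CCAAT box lay in 80.0% of mitosis, 60.0% of S-phase and 38.5% of all promoters. Lower and higher genes did not differ much in it, with 53.6% of lower and 56.5% of higher genes. The promoters of 2 mitosis and 2 S-phase genes that fell are printed 5′ to 3′ on the strand of the gene, because in these genes the motifs stand beside an RNA difference. Capitals mark the CHR, the E2F site and the CCAAT box in either orientation.
Top2a: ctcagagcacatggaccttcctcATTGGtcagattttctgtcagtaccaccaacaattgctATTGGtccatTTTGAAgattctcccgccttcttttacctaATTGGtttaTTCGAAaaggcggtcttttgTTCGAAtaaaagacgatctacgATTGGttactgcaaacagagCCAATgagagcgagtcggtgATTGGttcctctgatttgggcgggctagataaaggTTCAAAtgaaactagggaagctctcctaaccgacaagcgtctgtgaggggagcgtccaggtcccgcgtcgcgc
Ube2c: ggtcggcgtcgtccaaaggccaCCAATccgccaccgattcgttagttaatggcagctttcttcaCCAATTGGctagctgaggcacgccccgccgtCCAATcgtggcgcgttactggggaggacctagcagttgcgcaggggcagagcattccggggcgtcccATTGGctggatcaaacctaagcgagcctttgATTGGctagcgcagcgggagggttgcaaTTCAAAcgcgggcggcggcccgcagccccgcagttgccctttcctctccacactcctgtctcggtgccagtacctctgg
Mcm5: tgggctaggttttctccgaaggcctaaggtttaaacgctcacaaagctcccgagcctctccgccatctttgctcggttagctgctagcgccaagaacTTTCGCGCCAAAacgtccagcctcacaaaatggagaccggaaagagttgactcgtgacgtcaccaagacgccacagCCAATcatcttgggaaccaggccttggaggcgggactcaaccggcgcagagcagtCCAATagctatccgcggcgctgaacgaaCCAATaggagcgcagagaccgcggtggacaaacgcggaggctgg
Pclaf: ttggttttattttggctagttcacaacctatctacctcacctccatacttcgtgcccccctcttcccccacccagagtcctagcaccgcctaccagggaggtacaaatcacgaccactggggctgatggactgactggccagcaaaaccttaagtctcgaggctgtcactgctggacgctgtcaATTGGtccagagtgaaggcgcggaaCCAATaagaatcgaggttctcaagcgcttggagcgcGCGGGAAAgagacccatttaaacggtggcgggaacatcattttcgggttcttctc
The window of Top2a (chr11:99024140-99024439, minus strand) held 4 CHR matches, the nearest beginning 23 bases before the start, and 6 CCAAT boxes. That of Ube2c (chr2:164769679-164769978, plus strand) held a CHR 29 bases before the start and 6 CCAAT boxes, of which 2 share letters in CCAATTGG. In Mcm5 (chr8:75109259-75109558, plus strand) overlapping E2F matches began 153 and 149 bases before the start, and in Pclaf (chr9:65890073-65890372, plus strand) an E2F match began 5 bases before it.

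Several collagen and collagen-processing genes fell at week 2. Of 34 fibrillar collagens and matrix glycoproteins, 2 fell and none rose, 26 lay lower in both week 2 libraries and 2 higher, and the median log2 fold change was -0.78. Col1a1, the major chain of type I collagen (chromosome 11, 94936224 to 94953042 in the deposited table, whose builds are named mm10 and GRCm38), averaged 2867 ± 914 CPM at week 2 and 12687 ± 5571 CPM at day 7 (SD, n = 2 each), with 3514 and 2221 CPM in the week 2 libraries and 8748 and 16626 CPM in the day 7 libraries. The day 7 libraries of Col1a1 lay far apart, both above week 2, and its call was close to the threshold (-2.15 ± 0.42, adjusted p = 0.0475). Col5a1, a chain of the minor collagen that starts fibrils, had 154 and 179.6 CPM at week 2, against 339 and 465 CPM at day 7 (-1.27 ± 0.25, adjusted p = 0.0472). Without day 7 replicate 2 the adjusted p of both was 0.328. Col3a1 had 5362 and 3979 CPM at week 2, against 9674 and 12135 CPM at day 7, and did not pass (-1.22 ± 0.38, adjusted p = 0.141). Periostin, the matricellular marker of activated cardiac fibroblasts (Postn), had 6437 and 3333 CPM at week 2, against 11770.1 and 12932 CPM at day 7, and missed the threshold (-1.34 ± 0.30, adjusted p = 0.0655). Tenascin C, a glycoprotein of fresh wounds (Tnc), had 89.4 and 72.9 CPM at week 2, against 247 and 265 CPM at day 7, and did not pass either (-1.66 ± 0.48, adjusted p = 0.133). In all of these genes both week 2 libraries were below both day 7 libraries.

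Enzymes that mature collagen moved unevenly. Loxl2, a lysyl oxidase that cross-links collagen outside the cell (chromosome 14, 69609068 to 69695834), had replicates that lay close together in each group, with 50.5 and 52.5 CPM at week 2, against 229 and 212 CPM at day 7, a log2 fold change of -2.10 ± 0.24 (adjusted p = 0.00355). Its adjusted p was 0.0169 without day 7 replicate 2 and 0.022 without week 2 replicate 2. Fkbp10, a collagen chaperone of the endoplasmic reticulum, had 112 and 66.8 CPM at week 2, against 269 and 483 CPM at day 7 (-2.07 ± 0.35, adjusted p = 0.0305, and 0.201 without day 7 replicate 2). Lox, the founding lysyl oxidase, had 1154 and 1054 CPM at week 2, against 1589 and 1060.1 CPM at day 7, and the groups overlapped. Loxl1, which acts on elastin, had 749.5 and 236 CPM at week 2, against 946 and 1076 CPM at day 7 (-1.04 ± 0.49, adjusted p = 0.331), its week 2 libraries lying far apart from each other. Over the 29 collagen-processing genes tested, 2 fell, none rose, and the median was -0.42. Fbln2, a fibulin of elastic fibres and basement membranes and the 1 basement membrane gene of 20 that was called, had 387 and 190.3 CPM at week 2, against 877 and 1092 CPM at day 7 (-1.77 ± 0.35, adjusted p = 0.0472). Adam12, a membrane protease of activated mesenchymal cells and the 1 called gene among 29 metalloproteinases and inhibitors, had 6.05 and 3.99 CPM at week 2, against 28.8 and 27.6 CPM at day 7 (-2.49 ± 0.42, adjusted p = 0.0291). Timp1, a metalloproteinase inhibitor, had 215 and 289 CPM at week 2, against 359 and 612 CPM at day 7, and did not pass (adjusted p = 0.275).

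**Figure D2:**
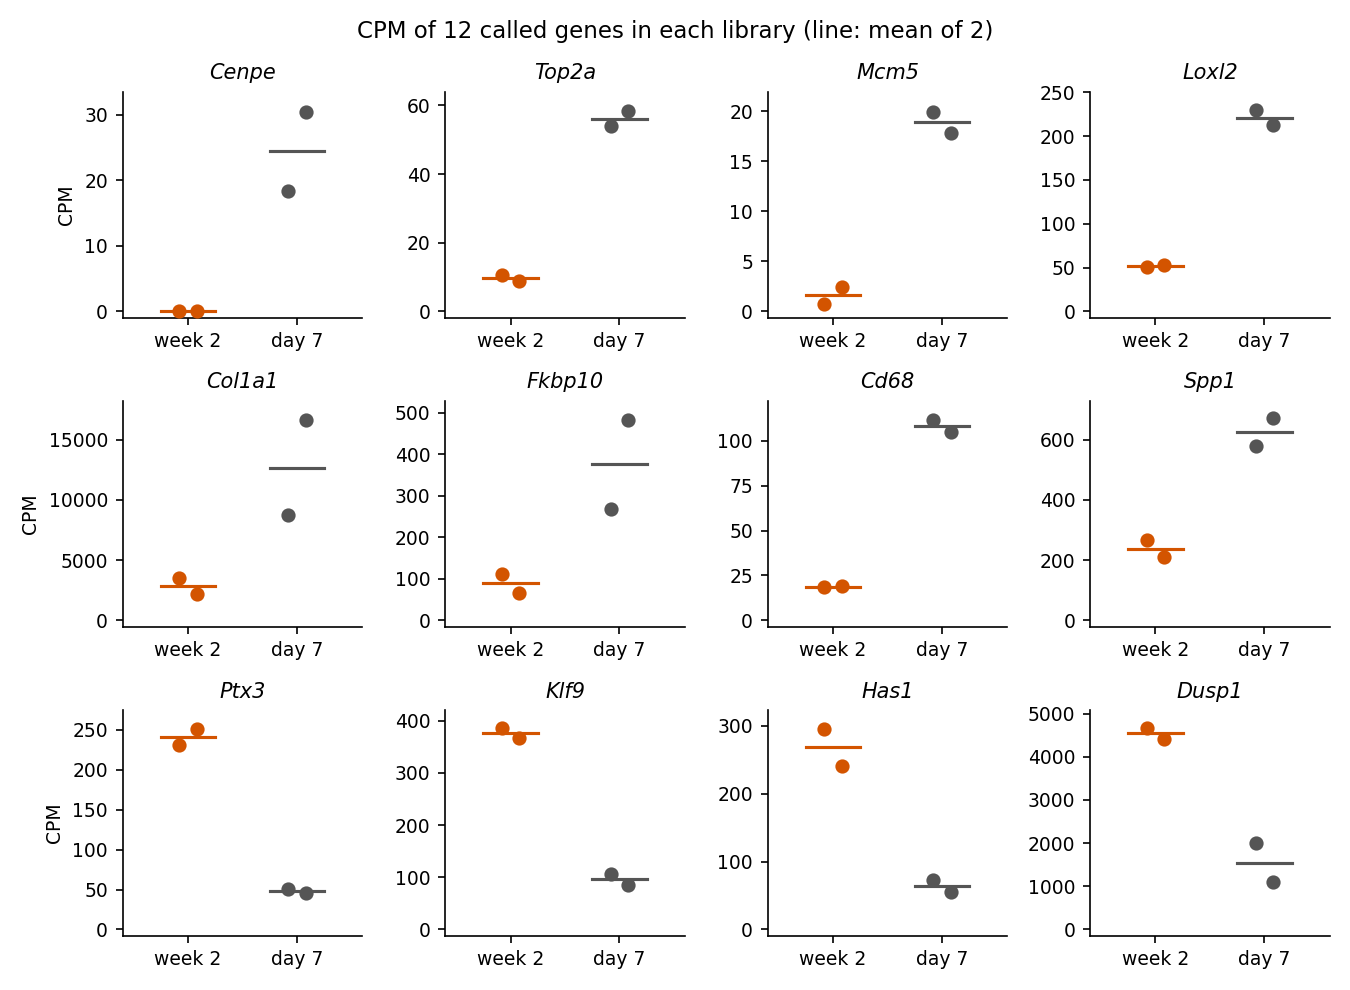
CPM of 12 called genes in each week 2 and day 7 library, on linear axes from 0. Each point is a library and each line the mean of 2 libraries. The upper 8 genes are lower at week 2, with the day 7 libraries of Col1a1 and Fkbp10 well apart from each other, and the lower 4 genes (Ptx3, Klf9, Has1 and Dusp1) are higher at week 2.

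Contractile genes gave 1 call. Of 26 contractile and myofibroblast genes 1 fell, 12 lay lower in both week 2 libraries and 2 higher, with a median of -0.55. Without week 2 replicate 1 that median was -0.17. The called member was Cnn2, a calponin that binds actin filaments, at 91 and 90.2 CPM at week 2, against 250.5 and 261 CPM at day 7 (-1.50 ± 0.25, adjusted p = 0.0284). Acta2, smooth muscle actin and the classical myofibroblast marker, had 231 and 518 CPM at week 2, against 642 and 950.3 CPM at day 7, and did not pass (-1.09 ± 0.44, adjusted p = 0.262). Smtn, the smooth muscle protein smoothelin, was on the list of pericyte and smooth muscle markers, where it was the 1 called gene of 18, and had 33.3 and 32.7 CPM at week 2, against 68.7 and 120.4 CPM at day 7 (-1.52 ± 0.30, adjusted p = 0.0472). The 18 pericyte and smooth muscle markers summed to 1050 and 1880 CPM at week 2 and 1410 and 1960 CPM at day 7. Thy1, a surface glycoprotein used as a fibroblast marker, fell to 5.27 and 7.2 CPM at week 2, against 26.9 and 44.6 CPM at day 7 (-2.52 ± 0.47, adjusted p = 0.0416). Of the 15 fibroblast markers 2 fell and none rose, and the median was -0.36. In both week 2 libraries 8 of them lay lower and 2 higher.

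Other markers of injury-activated fibroblasts did not pass. Cthrc1, a secreted protein of reparative fibroblasts, had 1403 and 2109 CPM at week 2, against 2701 and 2886 CPM at day 7 (-0.67 ± 0.27, adjusted p = 0.238), and Ccn4, a matricellular Wnt target, had 155 and 237 CPM at week 2, against 290.4 and 360.4 CPM at day 7 (-0.73 ± 0.38, adjusted p = 0.37). Both lay lower in both week 2 libraries. Runx1, a transcription factor of activated fibroblasts, had 114 and 142 CPM at week 2, against 79 and 84.4 CPM at day 7 (0.65 ± 0.34, adjusted p = 0.364) and lay higher. Meox1, a homeobox regulator of fibroblast activation, had 371 and 299 CPM at week 2, against 300.1 and 345 CPM at day 7, and the groups overlapped.

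Several genes of macrophages and immune signalling fell at week 2. Of the 25 macrophage and monocyte markers, all with counts in these libraries, 21 lay lower in both week 2 libraries and none higher, their median was -2.28 on the log2 scale, and 1 was called. That gene, Cd68, an endosomal glycoprotein of macrophages, had 18.6 and 19 CPM at week 2, against 112 and 105 CPM at day 7 (-2.52 ± 0.32, adjusted p = 0.00637), and the replicates of each group lay close together. Its adjusted p without day 7 replicate 2 was 0.0565. Csf1r, the receptor for the macrophage growth factor, had 14.2 and 7.48 CPM at week 2, against 51 and 99.1 CPM at day 7, and Adgre1, the F4/80 antigen, had 17.2 and 36.3 CPM at week 2, against 77 and 101 CPM at day 7, and neither passed (adjusted p = 0.278 and 0.194). Mpeg1, a pore-forming protein of macrophages, fell to 13.8 and 8.72 CPM at week 2, against 101 and 125 CPM at day 7 (-3.33 ± 0.61, adjusted p = 0.0416). C3ar1, the receptor for complement fragment C3a, fell to 25.3 and 19.1 CPM at week 2, against 103 and 158 CPM at day 7 (-2.56 ± 0.51, adjusted p = 0.0472). H2-Aa, a class II antigen-presenting chain, had 22.5 and 40.4 CPM at week 2, against 125 and 172 CPM at day 7, and missed the threshold (adjusted p = 0.0681).

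Among secreted immune signals, Spp1 and Ccl8 fell. Of 32 cytokines and chemokines, 2 fell and none rose, 20 lay lower in both week 2 libraries and 1 higher, and the median was -1.33, or -0.80 without day 7 replicate 2. Spp1, the secreted phosphoprotein osteopontin, had 267 and 209.8 CPM at week 2, against 579 and 670.1 CPM at day 7 (-1.39 ± 0.28, adjusted p = 0.0475), and Ccl8, a monocyte-attracting chemokine, had 3.55 and 2.98 CPM at week 2, against 19.3 and 16.5 CPM at day 7 (-2.45 ± 0.44, adjusted p = 0.034). Without day 7 replicate 2 the adjusted p was 0.287 for Spp1 and 0.142 for Ccl8. The related chemokines Ccl2, at 58.5 and 95 CPM at week 2, against 136 and 249 CPM at day 7, and Ccl7, at 39.9 and 83 CPM at week 2, against 110.5 and 226 CPM at day 7, lay lower at week 2 and did not pass (adjusted p = 0.172 and 0.13). None of 36 interferon-stimulated genes was called, 17 lay lower and 3 higher, and Isg15, a ubiquitin-like protein induced by interferon, had 6.72 and 23.9 CPM at week 2, against 41.7 and 76.5 CPM at day 7 (adjusted p = 0.128). Of 27 lysosome and phagocytosis genes 2 fell, Cd68 and Psap, with a median of -0.37, or -0.24 without day 7 replicate 2 and -0.18 without week 2 replicate 2. Psap, the lysosomal precursor prosaposin, fell to 586 and 312 CPM at week 2, against 1646 and 2015 CPM at day 7 (-2.03 ± 0.30, adjusted p = 0.0145).

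Beside these immune and lysosomal genes stand the marker sums of the same libraries. Macrophage markers summed to 629 and 735 CPM at week 2 and 2190 and 3810 CPM at day 7, and the 10 tested of 13 dendritic and class II markers to 326 and 610 CPM at week 2 and 1170 and 1540 CPM at day 7. The 8 tested neutrophil markers summed to 4.27 and 1.13 CPM at week 2 and 29.5 and 27.4 CPM at day 7, with the granule genes Elane, Ltf, Ly6g, Mpo and Ngp at 0 counts in all 4 libraries. The 5 tested lymphocyte markers summed to 3.83 and 1.52 CPM at week 2 and 4.72 and 12.8 CPM at day 7, with Cd8a and Ms4a1 at 0 counts in all 4 libraries. The part of macrophages or other immune cells in the sorted fraction in the differences above was not tested.

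Genes of protein synthesis and glycolysis lay lower at week 2 with few calls. All but 2 of 42 ribosomal protein genes had both week 2 libraries below both day 7 libraries, none of these 42 was called, and their fold changes kept to a narrow band between -1.12 and -0.34 with a median of -0.71. Rplp0, a protein of the ribosomal stalk, had 1034 and 1089 CPM at week 2, against 1663 and 2078 CPM at day 7 (-0.82 ± 0.21, adjusted p = 0.0881). A pair of ribosomal protein genes outside that list, named after their values were seen, fell: Rpsa (-1.18 ± 0.23, adjusted p = 0.042) and Rps24 (-1.12 ± 0.21, adjusted p = 0.042). Both calls were lost without day 7 replicate 2 and without either week 2 library. Eif4a1, the RNA helicase of translation initiation, fell to 394 and 291 CPM at week 2, against 771 and 1027 CPM at day 7 (-1.39 ± 0.26, adjusted p = 0.0416). Npm3, a nucleolar chaperone, fell to 1.22 and 2.14 CPM at week 2, against 15.3 and 18.5 CPM at day 7 (-3.32 ± 0.59, adjusted p = 0.0331). Of 23 glycolysis genes 1 fell, 15 lay lower and 4 higher, and the called gene was Gapdh, the glyceraldehyde phosphate dehydrogenase often used as a reference in RNA assays, at 242 and 215 CPM at week 2, against 426 and 609 CPM at day 7 (-1.18 ± 0.22, adjusted p = 0.0416). Ribosomal protein and Gapdh transcripts have many processed pseudogenes, so reads can be split among copies. Of 41 nuclear genes of oxidative phosphorylation none was called, and 13 lay lower and 2 higher, beside 22.6% and 20% of all genes. Their median of -0.09 was 0.12 without week 2 replicate 1 and -0.39 without week 2 replicate 2.

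**Figure D3:**
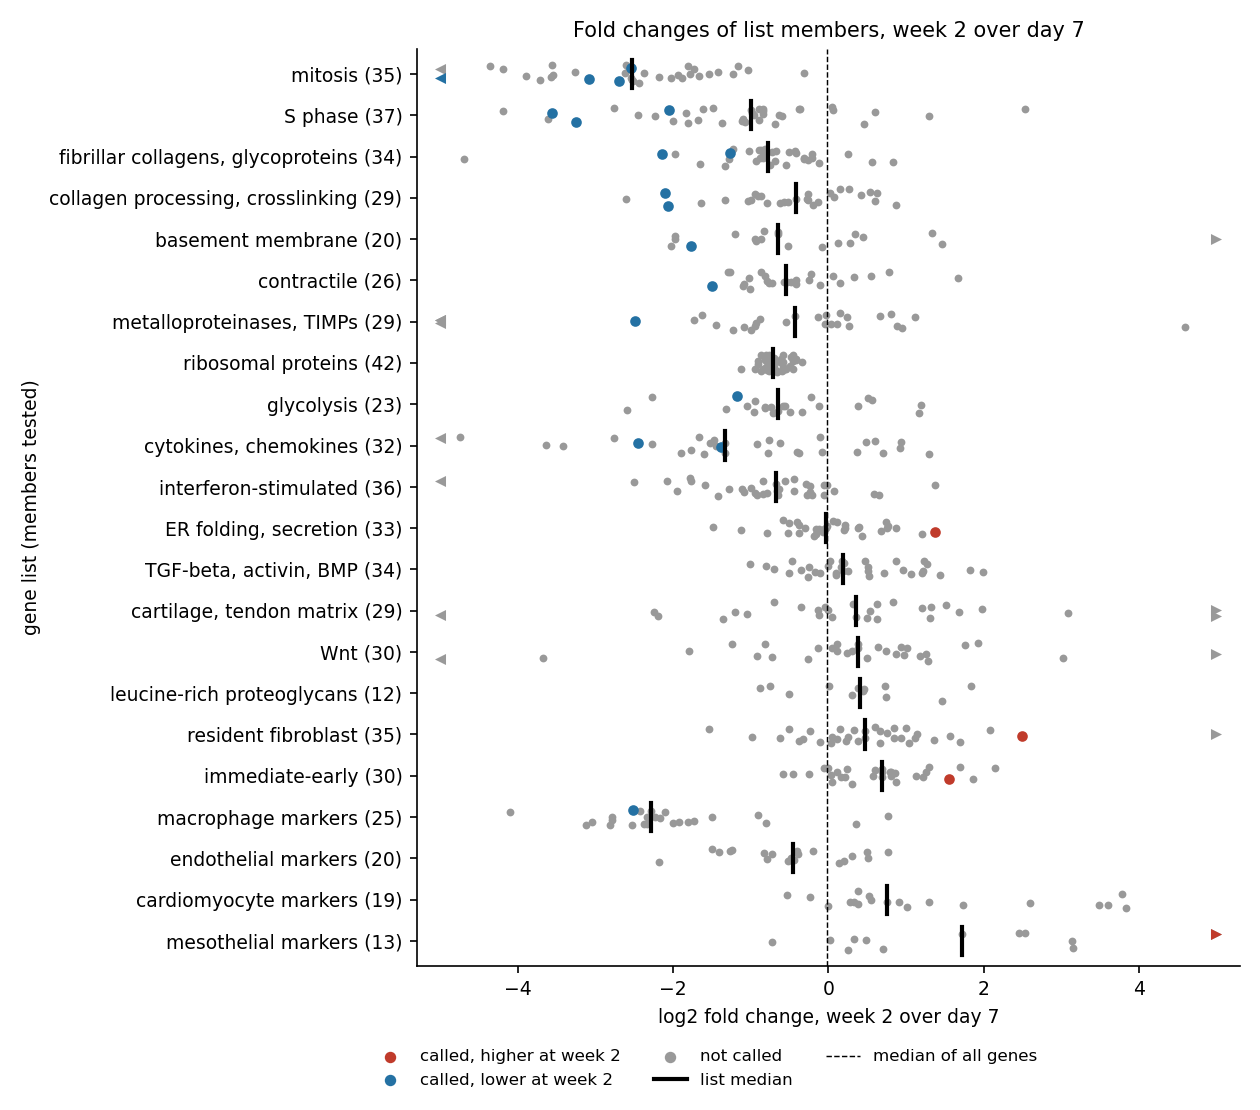
Log2 fold changes of week 2 over day 7 for the members of 22 gene lists. Each point is a gene, coloured where called, the thick bar is the list median and the dashed line the median of all genes. Triangles at the edge stand for values beyond 5 in size. Mitosis and macrophage lists have the lowest medians at -2.53 and -2.28, ribosomal protein genes form a narrow band around -0.71, and the resident fibroblast and immediate-early lists have medians of 0.47 and 0.69, the second at -0.05 without week 2 replicate 1.

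Genes that rose at week 2 included secreted and signalling genes. Ptx3, a long pentraxin that binds hyaluronan-rich matrix and complement (chromosome 3, 66219910 to 66225805), averaged 242 ± 14.2 CPM at week 2 and 47.6 ± 3.49 CPM at day 7 (SD, n = 2 each), with 232 and 252 CPM in the week 2 libraries and 50.1 and 45.2 CPM in the day 7 libraries, a log2 fold change of 2.34 ± 0.27 (adjusted p = 0.00355). Has1, a hyaluronan synthase, had 296 and 241 CPM at week 2, against 73.3 and 54.5 CPM at day 7 (2.07 ± 0.36, adjusted p = 0.0331). Crispld2, a secreted protein of mesenchymal cells, had 1016 and 1156 CPM at week 2, against 364 and 432 CPM at day 7 (1.45 ± 0.26, adjusted p = 0.0355). Rbp4, the plasma carrier of retinol, was at 27.1 and 57.3 CPM at week 2, against 6.64 and 8.32 CPM at day 7 (2.5 ± 0.51, adjusted p = 0.0486), and Slc23a2, a vitamin C transporter, at 18.2 and 13.4 CPM at week 2, against 1.57 and 0.482 CPM at day 7 (3.92 ± 0.63, adjusted p = 0.0244). In all 5 genes the week 2 libraries were at least 2 times the day 7 libraries. The adjusted p of Ptx3 was 0.0573 without day 7 replicate 2 and 0.0173 without week 2 replicate 2.

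Regulators of transcription and signalling also rose. Klf9, a zinc-finger factor induced by glucocorticoids, had 386 and 367 CPM at week 2, against 107 and 85.1 CPM at day 7 (1.97 ± 0.29, adjusted p = 0.0143). Dusp1, the immediate-early phosphatase that switches off MAP kinases, had 4661 and 4419 CPM at week 2, against 2005 and 1092 CPM at day 7 (1.55 ± 0.31, adjusted p = 0.0472). Its adjusted p was 0.328 without day 7 replicate 2 and 0.0582 without week 2 replicate 1. Ptp4a1, a membrane-linked tyrosine phosphatase whose symbol stands for several gene IDs in the table (here ENSMUSG00000117310), had 1133 and 820.2 CPM at week 2, against 400.0 and 249 CPM at day 7 (1.59 ± 0.27, adjusted p = 0.03). Peli1, a ubiquitin ligase of Toll-like receptor signalling, had 137 and 102 CPM at week 2, against 41.5 and 15.3 CPM at day 7, and Zbtb38, a factor that binds methylated DNA, had 465 and 626 CPM at week 2, against 266 and 227 CPM at day 7. Rab5a, a GTPase of early endosomes, had 247 and 340.3 CPM at week 2, against 119.9 and 54.6 CPM at day 7, Pi4k2b, a phosphatidylinositol kinase, had 81.7 and 86.9 CPM at week 2, against 31.8 and 19.3 CPM at day 7, and Rb1cc1, a scaffold of autophagy initiation, had 159.7 and 174 CPM at week 2, against 70.1 and 31.7 CPM at day 7. Hspa12a, a distant relative of the heat shock 70 family, had 27.1 and 22.4 CPM at week 2, against 7.97 and 6.27 CPM at day 7, and Ccdc117 had 96.4 and 51.3 CPM at week 2, against 22.6 and 11.1 CPM at day 7. For these the adjusted p lay between 0.0416 and 0.048.

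Of 30 immediate-early genes Dusp1 alone was called, 11 lay higher in both week 2 libraries and none lower, and the median log2 fold change was 0.69. That median was -0.05 without week 2 replicate 1, so it rested on that library. Week 2 replicate 1 also held 4.21% mitochondrial counts, and a link between these counts and the median was not tested. The cyclic AMP response element (CRE, searched as TGACGTCA on both strands) lay in 4 of 23 promoter windows of higher genes (17.4%), in 3 of 56 of lower genes (5.36%) and in 3.16% of all. It was 1 of 8 motifs searched, and 2 of 24 immediate-early promoters held it (8.33%). The window of Mcm5 printed above, a gene that fell, also holds the CRE, left there in lower case. The windows of Dusp1 (chr17:26508423-26508722, minus strand) and Has1 (chr17:17855139-17855438, minus strand) are shown with the CRE in capitals, as higher genes that hold it. The CRE begins 143 bases before the start in Dusp1 and 83 bases before it in Has1. Both windows also hold a CHR match, read here as ttcaaa and left in lower case.
Dusp1: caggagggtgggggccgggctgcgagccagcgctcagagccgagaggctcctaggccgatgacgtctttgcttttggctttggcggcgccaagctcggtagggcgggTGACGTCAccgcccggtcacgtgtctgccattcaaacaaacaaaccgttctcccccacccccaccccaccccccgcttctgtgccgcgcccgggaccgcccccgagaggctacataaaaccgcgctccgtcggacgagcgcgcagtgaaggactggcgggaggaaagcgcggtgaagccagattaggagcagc
Has1: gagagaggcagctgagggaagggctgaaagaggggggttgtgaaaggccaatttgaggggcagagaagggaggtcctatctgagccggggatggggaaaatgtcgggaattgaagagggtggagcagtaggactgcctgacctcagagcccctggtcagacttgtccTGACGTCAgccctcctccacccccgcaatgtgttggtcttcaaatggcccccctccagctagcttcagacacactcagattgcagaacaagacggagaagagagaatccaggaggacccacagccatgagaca

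Of the genes that rose, Gpm6a is also a marker of mesothelium, the cell layer on the heart surface. Gpm6a, a neuronal and mesothelial membrane glycoprotein, had 808 and 305 counts at week 2 (44.8 and 17.2 CPM), against 3 and 0 counts at day 7, 383-fold higher at week 2 with a 95% counting interval from 131 to 1860 (adjusted p = 0.0145). That interval covers counting error only, not the spread between libraries. Gpm6a was the 1 called gene of 13 epicardial and mesothelial markers. Of these, 4 lay higher in both week 2 libraries and none lower, beside 20% and 22.6% of all genes. The 13 markers summed to 252 and 101 CPM at week 2 and 82.8 and 29.2 CPM at day 7, so replicate 1 was the higher of each pair. Upk3b, a uroplakin of mesothelial cells, had 41.5 and 20.3 CPM at week 2, against 6.55 and 0.362 CPM at day 7, and did not pass (adjusted p = 0.263). Has1 and Ptx3 are also known from mesothelial cells, and the part of such cells in their difference was not tested. Cardiomyocyte markers summed to 229 and 132 CPM at week 2 and 92.1 and 129 CPM at day 7, and the 10 tested erythroid and platelet markers to 1470 and 3760 CPM at week 2 and 854 and 1220 CPM at day 7, and none of either list was called.

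Genes of resting fibroblasts gave 1 call. Of 35 resident fibroblast genes 1 rose (Rbp4), 14 lay higher in both week 2 libraries and 6 lower, and the median log2 fold change was 0.47. Without week 2 replicate 1 that median was 0.17, and without day 7 replicate 1 it was 0.73. Gsn, the actin-severing protein gelsolin that is abundant in resting cardiac fibroblasts, had 6765 and 3364 CPM at week 2, against 2962 and 1971 CPM at day 7, and did not pass (1.04 ± 0.51, adjusted p = 0.353). Decorin, the collagen-binding proteoglycan (Dcn), had 14260.0 and 10299 CPM at week 2, against 7865 and 6872 CPM at day 7 (0.74 ± 0.28, adjusted p = 0.222), while biglycan (Bgn), its close relative, had 4699 and 3887 CPM at week 2, against 6499 and 7953 CPM at day 7 (-0.75 ± 0.25, adjusted p = 0.171). Lum, a keratan sulphate proteoglycan of fibrils, had 7327 and 7081 CPM at week 2, against 5809 and 4769 CPM at day 7 (0.45 ± 0.30), and Fmod, another fibril proteoglycan, had 987 and 521 CPM at week 2, against 382 and 777 CPM at day 7, with overlapping groups. None of the 12 leucine-rich proteoglycans passed. Sfrp2, a secreted Wnt modulator, had 4514 and 3214 CPM at week 2, against 2049.6 and 1998 CPM at day 7 (0.93 ± 0.30, adjusted p = 0.155), and Wif1, a Wnt inhibitor of resting fibroblasts, was at 1.61 and 0 CPM at week 2, against 0 and 1.57 CPM at day 7, detected in 1 library of each group.

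Matrifibrocyte genes were already present at day 7 and did not pass. Comp, a pentameric glycoprotein of cartilage and tendon, had 1268 and 1214 CPM at week 2, against 378 and 702 CPM at day 7, with both week 2 libraries above both day 7 libraries (1.20 ± 0.52, adjusted p = 0.293). Chad, a leucine-rich protein of cartilage, had 129.6 and 57.3 CPM at week 2, against 7.78 and 39.6 CPM at day 7 (1.98 ± 1.20, adjusted p = 0.457). Cilp, a matrix protein of the cartilage intermediate layer, had 1816 and 404 CPM at week 2, against 464 and 969 CPM at day 7, and Cilp2 had 18.2 and 6.64 CPM at week 2, against 1.28 and 7.42 CPM at day 7, and in both the groups overlapped. Over 29 cartilage and tendon matrix genes none was called. Of these, 7 lay higher and 5 lower, near the 20% and 22.6% of all genes. Their median was 0.36, which was 0.0 without week 2 replicate 1 and 0.62 without day 7 replicate 1. In the endoplasmic reticulum list 1 of 33 genes rose, Dnajb9, a cochaperone of the lumen, at 352 and 363 CPM at week 2, against 166 and 110.5 CPM at day 7 (1.37 ± 0.28, adjusted p = 0.0475), while Hspa5, the main lumenal chaperone, had 4018 and 4188 CPM at week 2, against 2575 and 2317 CPM at day 7, and did not pass (adjusted p = 0.158). The TGF-beta, activin and BMP list of 34 genes and the Wnt list of 30 held no call, with medians of 0.19 and 0.38. With a library left out these lay between 0.11 and 0.44 for the first list and between 0.22 and 0.49 for the second.

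Set in the whole course, the called genes took several paths between injury and scar. Top2a had 14.6 and 4.5 CPM in uninjured hearts, 207 and 305 at day 3, 53.9 and 58.4 at day 7, 10.5 and 8.72 at week 2 and 2.85 and 2.0 at week 4. Loxl2 peaked at day 3 and was back near its uninjured level by week 2, with 66.8 and 60.3 CPM in uninjured hearts, 354 and 355 at day 3, 229 and 212 at day 7, 50.5 and 52.5 at week 2 and 58.2 and 89.8 at week 4. Col1a1 differed from these in that day 7 was the highest point, with 903 and 415 CPM in uninjured hearts, 5888 and 3975 at day 3, 8748 and 16626 at day 7, 3514 and 2221 at week 2 and 6046 and 6258 at week 4. Spp1 was lowest before injury and highest at day 3, with 33.6 and 22 CPM in uninjured hearts, 1001 and 1689.8 at day 3, 579 and 670.1 at day 7, 267 and 209.8 at week 2 and 219.7 and 214 at week 4. Among genes that rose, Klf9 had 345 and 293 CPM in uninjured hearts, 90.2 and 45.6 at day 3, 107 and 85.1 at day 7, 386 and 367 at week 2 and 252 and 253 at week 4, a dip at days 3 and 7. Ptx3 dipped at day 7, with 108 and 146 CPM in uninjured hearts, 186 and 114 at day 3, 50.1 and 45.2 at day 7, 232 and 252 at week 2 and 118 and 126 at week 4. Crispld2 had 1356 and 1534 CPM in uninjured hearts, 293 and 163 at day 3, 364 and 432 at day 7, 1016 and 1156 at week 2 and 1586 and 1487 at week 4. Over the 68 lower genes the highest group mean was at day 3 for 44 and at day 7 for 20, and the lowest was at week 2 for 41. Over the 29 higher genes the lowest mean was at day 7 for 20 and at day 3 for 9. The genes were chosen on the week 2 and day 7 libraries, which partly sets these counts.

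**Figure D4:**
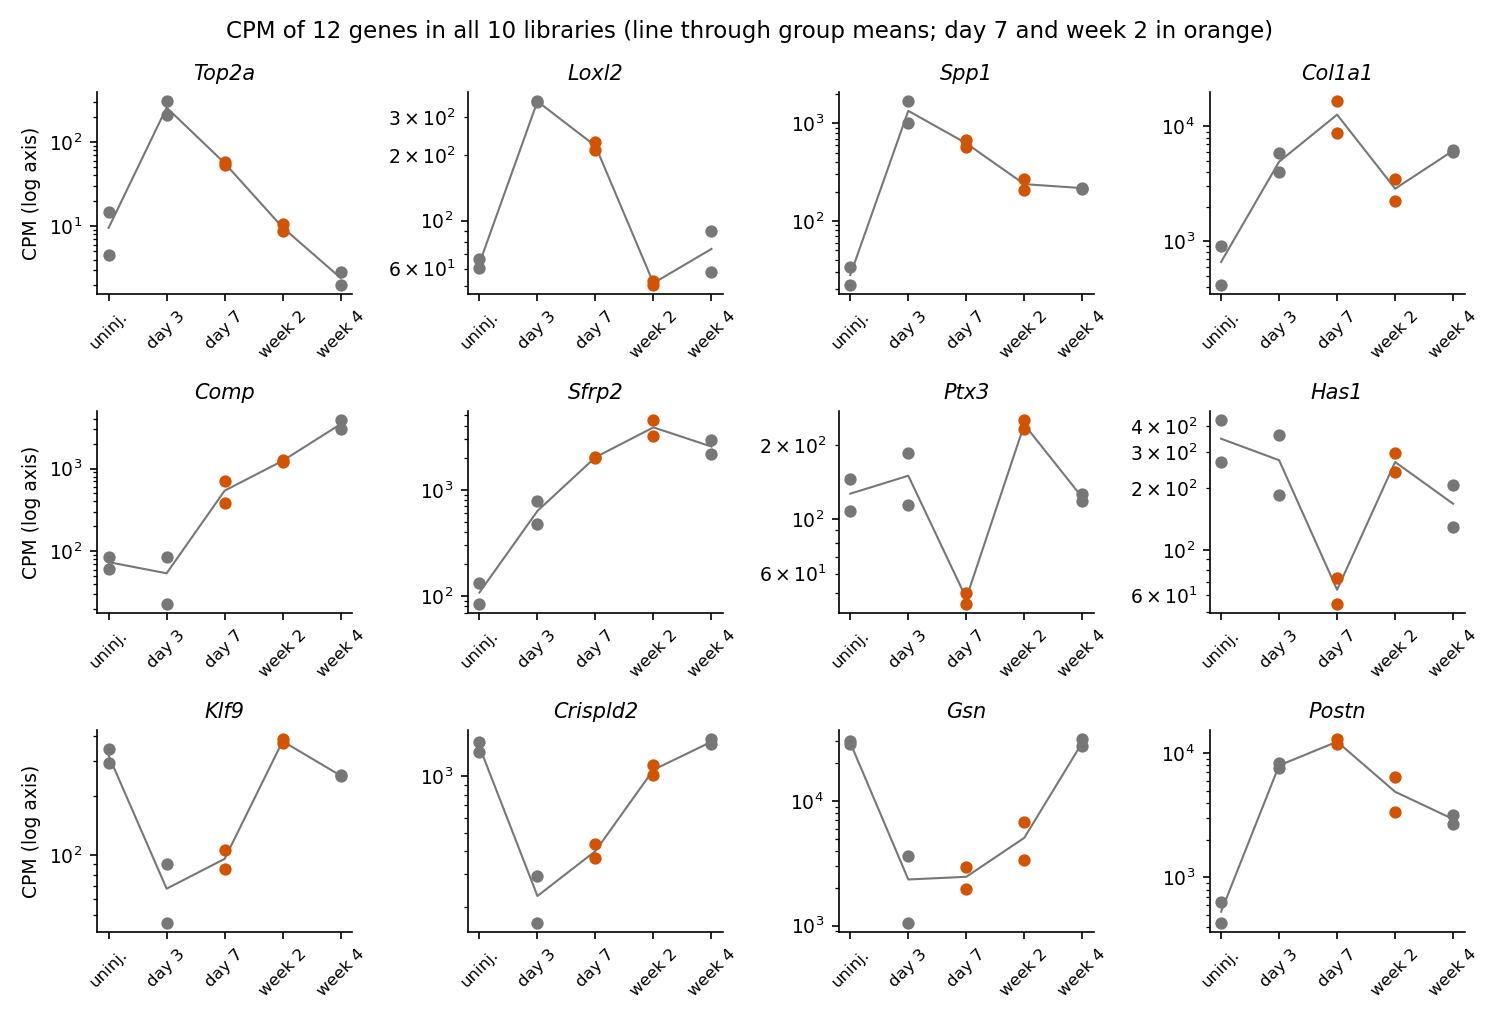
CPM of 12 genes in all 10 RNA-seq libraries, on log axes, from uninjured hearts to week 4 after infarction. Each point is a library, day 7 and week 2 in orange, and the line runs through the group means. Top2a and Loxl2 peak at day 3 and Col1a1 at day 7, Comp is highest at week 4, and Ptx3, Has1 and Klf9 lie lower at day 7 than at week 2.

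A later against an earlier time could also be compared in other libraries, those of week 4 and day 3. They are not in the contrast that chose these genes, but they shared in the filter and the estimate of spread of that fit. There 874 genes were higher at week 4 (5.84% of genes tested) and 1126 lower (7.52%). Of the 68 genes that fell at week 2, 48 were also lower at week 4 than at day 3 (70.6%), the median being -1.6 on the log2 scale, and 60 had the same sign, where 47.8% of all genes had that sign. Of the 29 genes that rose, 12 were also higher at week 4 than at day 3 (41.4%), with a median of 0.82, and 25 had the same sign, where 51.3% of all genes had it. Cenpe, for example, was at 4.83 and 6.38 CPM at week 4 and 89.5 and 145 CPM at day 3, and Cd68 at 9.59 and 6.09 CPM at week 4 and 75.3 and 109 CPM at day 3. No higher gene and 3 lower genes were called the other way. The 3 were Smtn, at 161 and 115 CPM at week 4 and 55.1 and 54.4 CPM at day 3 (1.33 ± 0.30, adjusted p = 0.0119), and, named after their values were seen, Adam15 and Aplnr.

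**Figure D5:**
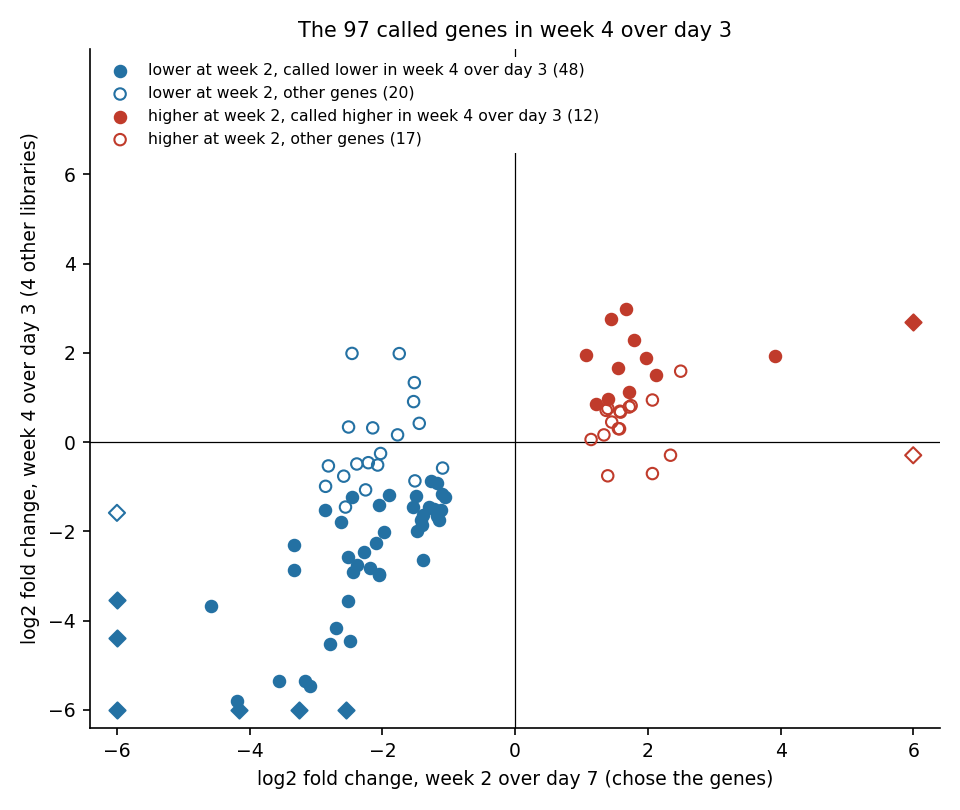
The 97 called genes in week 4 over day 3. The x axis gives the log2 fold change of week 2 over day 7, which chose the genes, and the y axis that of week 4 over day 3 from 4 other libraries. Blue marks genes lower and red genes higher at week 2, filled where they were also called in the same direction on the y axis (48 and 12 genes), and diamonds at the edge are values beyond 6 in size. Most blue points lie below 0 and most red points above it.

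Some genes that fell at week 2 did not fall in week 4 over day 3. Col1a1 was at 6046 and 6258 CPM at week 4 and 5888 and 3975 CPM at day 3 (0.32 ± 0.40, adjusted p = 0.666), Fbln2 at 900.3 and 609 CPM at week 4 and 832 and 516 CPM at day 3, and Psap at 857 and 889.8 CPM at week 4 and 1083 and 1001 CPM at day 3. Has1, which rose, had 129 and 207 CPM at week 4 and 362 and 186 CPM at day 3, and Ptx3 had 118 and 126 CPM at week 4 and 186 and 114 CPM at day 3. Neither passed in that comparison (adjusted p = 0.219 and 0.507). Comp, which did not pass in week 2 over day 7, was called in week 4 over day 3, and the difference between the comparisons was not tested (5.99 ± 0.63, adjusted p = 0.00076).

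ATAC-seq peaks were counted at the starts of the called genes. The authors' ATAC-seq peak lists held 77947 and 79702 peaks at week 2 and 93724 and 88332 at day 7. A peak within 1 kb of the gene start was present in all 4 lists for 21 of 23 higher genes with a usable start (91.3%, exact 95% interval 72% to 98.9%), for 51 of 56 lower genes (91.1%, 80.4% to 97%) and for 89.9% of all 11025. No called gene had a peak there in both week 2 lists and in neither day 7 list. Mpeg1 was the 1 called gene with a peak there in both day 7 lists and in neither week 2 list (1.79% of lower genes, beside 0.707% of all). Regions in the gene or within 20 kb of it were also counted, a measure added after the data were seen. A region found in the week 2 lists alone was present for 13.8% of higher genes, 11.8% of lower genes and 10.9% of all. One found in the day 7 lists alone was present for 20.7% of higher genes, 22.1% of lower genes and 23.6% of all. The intervals cover counting error only, and the lists differ in length. Because most genes of any kind have a peak at the start in every list, these shares do not measure whether openness differed.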

How the data were processed

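RNA-seq was measured in 10 libraries, 2 at each of 5 points. The authors deposited 1 table of expected counts per gene (values that need not be whole) for 25746 genes, of which 7472 had no count in any library. Per the submitters' processing notes, Trim Galore 0.6, FastQC, STAR 2.5.3a, DESeq2, Bowtie2 2.3 and MACS2 were used with mm10 and GRCm38. The program that counted reads, with its strand setting, is not given in the sources used here. Per the labels, cDNA was made with a low-input kit and amplified, so counts include copies made by amplification. The deposited ATAC-seq peak lists give for each peak a ratio (fold enrichment) and a −log10 q value, as the authors' peak caller wrote them, 1 list per library. These per-peak values were used only to filter peaks.

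Expected counts were rounded, genes were filtered with filterByExpr, and edgeR 4.0.16 in R 4.3.3 fitted all 10 libraries by group (TMM scaling, robust quasi-likelihood, 5 residual degrees of freedom). Week 2 minus day 7 and week 4 minus day 3 were tested with Benjamini-Hochberg adjustment over 14968 genes at 0.05. The standard error is the absolute log2 fold change over the square root of F. Total expected counts ran from 16397211 to 21043997 per library. The floor used for a gene at 0 was 3 counts over the TMM-scaled library size, averaged over the 2 libraries of a group. It was 0.168 CPM at week 2 and 0.164 CPM at day 7.

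The genes and lists were chosen with earlier results of these data known. Named genes are the 12 with the largest log2 fold change in each direction among called genes of at least 10 CPM in the higher group, the 5 in each direction with the largest CPM difference, the first 3 members of each list with up to 4 called ones, and 24 fibroblast genes. Predicted genes, mitochondrially encoded genes, Y-linked genes and Xist were left out. Genes of the rule were left out of the text where their group is given by counts, also with values known. For the lists no test was made. Alternatives were DESeq2 1.42.0, its size factors in edgeR, no filter, a filter at 1 CPM, the libraries of the 2 groups alone, each library left out, a replicate block and a term for Y-linked reads. Promoters were taken from RefSeq (GRCm38.p6). Replicates of each group differed far beyond counting noise, with a median chi-square of 26.07 at week 2 and 24.13 at day 7, beside 0.455 from counting alone.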

Additional observations from a re-analysis of the deposited data

How the results depend on the processing

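The 97 calls depended strongly on the fit. All 97 genes kept their sign in every alternative run. In each of them both week 2 libraries lay on the same side of both day 7 libraries. Other fits of the same counts could therefore hardly reverse a sign. Calls for week 2 over day 7 numbered 1029 (501 higher, 528 lower) with no low-count filter and 1049 (487 and 562) with DESeq2's Wald test, which called all 97 in the same direction. With the 4 libraries of these groups alone 6 genes were called (4 and 2), and with a term for Y-linked reads 20 (3 and 17). With DESeq2's size factors 45 genes were higher and 75 lower. Leaving out each library in turn gave 4 to 424 calls, 0 to 252 higher and 4 to 202 lower. With the tested genes held fixed, an alternative added after the data were seen, the ranges were 4 to 368, 0 to 219 and 4 to 193. In these fits the lone sample of a group is assumed to vary like the other groups. Where a call was lost or gained, the cause was not tested. Without day 7 replicate 2, 4 of the 68 lower and 0 of the 29 higher genes kept their call, without week 2 replicate 2 14 and 8.

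For week 4 over day 3, calls numbered 3159 (1485 higher) with DESeq2, 1573 higher with no filter, and 691 to 2353 with a library left out, 266 to 1058 higher and 392 to 1295 lower. Of the 87 genes named, none of the 48 called reversed, which their non-overlapping groups made nearly certain, and 8 of the 39 not called did. Leaving out libraries gave log2 fold changes from -0.109 to 0.996 for Fmod, from -0.0314 to 1.79 for Tcf21, from -6.75 to 6.91 for Wif1, from -0.0707 to 0.211 for Meox1, from -0.507 to 0.0703 for Lox, from -0.0181 to 0.175 for Pcna, from -0.293 to 0.575 for Pdgfra and from -0.781 to 1.35 for Cilp. Wif1 was also at -0.998 with a replicate block and -0.47 with the term for Y-linked reads, and Pcna at -0.00267 with that term. Replicate numbers did not pair the samples (correlation of deviations between week 2 and day 7 -0.00716). With a replicate block 114 genes were called (37 higher, 77 lower), and 24 of the 29 and 61 of the 68 kept their call. Requiring 0.5 of a peak inside the window, the share of genes with a peak in all 4 lists was 52.2% for higher and 60.7% for lower genes, beside 68.4% of all. With 2 libraries a group and genes near 3 counts, small fold changes of rare genes were not detectable.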

Other observations

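Called genes differed in the length of the gene on the chromosome. The median span was 36.4 kb for the 29 genes higher at week 2 and 15.5 kb for the 68 lower genes, beside 21.9 kb for all genes tested. In quartiles of span, from the shortest to the longest genes, the median log2 fold change was -0.1, -0.15, -0.0 and 0.14. From the shortest to the longest quartile 4, 6, 8 and 11 genes were called higher and 20, 23, 16 and 9 lower.

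Endothelial markers summed to 1120 and 1030 CPM at week 2 and 1300 and 1740 CPM at day 7, and none of the 20 was called. Heat shock genes, 18 in all, held no call and a median log2 fold change of 0.11, from -0.03 to 0.38 with a library left out.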
